A study of Mus musculus with 6 samples.

Results

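The purinergic and adenosine genes described here are P2rx4, P2rx7, Entpd1, Nt5e, Adora2a, Ada and Adk. They are 7 of the 54532 genes in the count table, taken by gene name, and all 7 passed the filter on low counts. In CD4+ T cells grown under Th1 conditions with the GlyT1 inhibitor ALX-5407, the adenosine receptor gene Adora2a fell to 0.315 times its level in vehicle cultures. The adenosine-clearing enzyme genes Ada and Adk rose to 1.61 and 1.47 times. The ectoenzyme gene Nt5e fell to 0.752 times, and P2rx4, P2rx7 and Entpd1 did not pass the test.

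ATP that leaves a cell is a signal, read by P2X ion channels (P2RX4 and P2RX7 among them) and by G protein-coupled P2Y receptors. CD39 (Entpd1) removes phosphates from ATP and ADP to give AMP, and CD73 (Nt5e) turns AMP into adenosine. Adenosine acts on T cells mainly through the A2a receptor (Adora2a), which raises cyclic AMP and dampens activation and cytokine production. The signal ends when adenosine is deaminated to inosine by adenosine deaminase (Ada) or taken up and phosphorylated back to AMP by adenosine kinase (Adk).

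RNA was sequenced from 6 cultures of CD4+ T cells that had been isolated from spleens of young adult male C57BL/6 mice by negative selection on magnetic beads. All 6 were activated with antibodies to CD3 and CD28 and kept for 72 h with IL-2, IL-12 and an antibody that blocks IL-4. To 3 cultures ALX-5407, which blocks glycine uptake by GlyT1, was added at 500 nM, and the other 3 received vehicle (0.1% DMSO). The labels put the exposure at 72 h and the study's methods at a shorter time, and the labels describe selection of polyadenylated RNA whereas the methods describe removal of ribosomal RNA. The labels call the 3 cultures of a group biological replicates but do not say whether they came from separate mice, so p-values measure the spread between cultures.

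Between 30801753 and 36727788 reads were counted per library. Of the 15938 genes tested with edgeR's quasi-likelihood test, 47.7% were called, that is, had a Benjamini-Hochberg adjusted p under 0.05, with 24.5% higher and 23.2% lower in ALX-5407 cultures. With the study's further limit of an absolute log2 fold change over 1, 10.0% were called. The median log2 fold change of all genes tested was 0.0053. The 7 T cell markers, Cd3e and Cd4 among them, summed to 2565 to 2696 CPM (read counts scaled to a common library size, with TMM factors) with vehicle and to 2599 to 2643 CPM with ALX-5407, but within that sum 2 were called higher and 3 lower. Cd4 (log2 fold change -0.46, edgeR adjusted p = 0.000174), Cd3d (-0.39) and Cd3g (-0.35) were lower, Cd28 (0.52) and Cd5 (0.24) were higher, and Cd3e was not called (-0.23, edgeR adjusted p = 0.101). Markers of other cells were low in all libraries. The 6 B cell markers summed to 7.90 to 9.24 CPM with vehicle and 12.5 to 15.9 CPM with ALX-5407. The 4 NK cell markers summed to 1.92 to 3.41 and 4.96 to 5.58 CPM. Eomes was the only NK cell marker tested and rose from 2.495 to 5.172 CPM (log2 fold change 1.05, edgeR adjusted p = 0.000485). Klrb1c, another of these markers, had 8, 9 and 4 reads with vehicle and 0, 2 and 3 with ALX-5407. The 5 dendritic cell markers summed to 4.05 to 4.87 and 3.00 to 3.73 CPM. The 2 CD8 T cell markers summed to 9.25 to 9.59 CPM with vehicle and 6.71 to 8.87 CPM with ALX-5407, and the 5 erythroid and platelet markers to 3.50 to 5.13 and 7.27 to 9.57 CPM. Of the 8 myeloid markers, S100a8 had no count in any library, and Cd68 made up most of a sum of 16.3 to 21.6 CPM with vehicle and 5.52 to 6.90 CPM with ALX-5407. The 6 Th1 markers summed to 1230 to 1406 CPM with vehicle and 1036 to 1080 CPM with ALX-5407. Of these 6, 2 were called higher and 2 lower. The transcription factor genes Hlx (log2 fold change 1.81, edgeR adjusted p = 7.74e-09) and Tbx21, which defines the lineage (0.34, edgeR adjusted p = 0.000941), were higher. Stat4, which relays the IL-12 signal, was lower (-1.16, edgeR adjusted p = 5.55e-08). The other lower marker, Ifng, went from 660.1 ± 106.4 to 382.5 ± 18.1 CPM (mean ± SD, n = 3), or by -0.79 (edgeR adjusted p = 5.75e-06).

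Among the 7 members, 2 were called higher and 2 lower, or 4 in all, beside a background in which 47.7% of all genes tested were called. One member, Adora2a, also passed the fold change limit. In bulk RNA, fewer cells that express a gene and less of its RNA per cell cannot be told apart. The median log2 fold change over the members was -0.02.

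**Figure D1:**
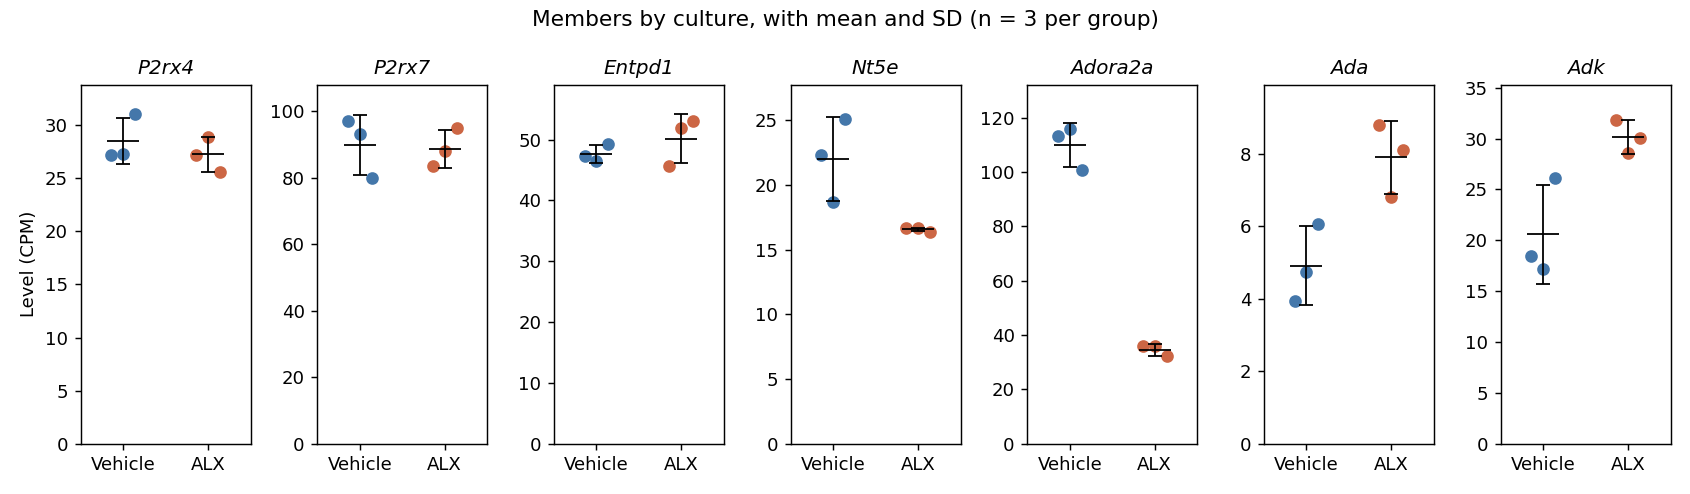
Level of each member in CPM (vertical axes, each starting at 0) in the 3 vehicle cultures (blue) and the 3 ALX-5407 cultures (orange); points are cultures, horizontal bars the mean and error bars the SD (n = 3 per group). The groups do not overlap for Nt5e, Adora2a, Ada and Adk, and they overlap for P2rx4, P2rx7 and Entpd1.

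Adora2a (ENSMUSG00000020178) lies on the + strand at chr10:75316877-75334784 (GRCm38) and has 4 annotated transcripts with up to 3 exons. It encodes the A2a receptor, through which adenosine raises cyclic AMP in T cells. Its level was 113, 116 and 101 CPM in the vehicle cultures (3692, 3628 and 3103 reads) and 35.8, 36.0 and 32.1 CPM in the ALX-5407 cultures (1263, 1341 and 1125 reads). The highest ALX-5407 culture was well under the lowest vehicle culture. The means were 110 ± 8.01 and 34.6 ± 2.18 CPM (± SD, n = 3), and the log2 fold change was -1.67 (standard error 0.0817, edgeR adjusted p = 3.62e-10).

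The other adenosine receptor genes moved the same way. Adora2b encodes the A2b receptor, which also couples to cyclic AMP production but needs more adenosine. It went from 15 ± 2.75 to 10.3 ± 0.344 CPM (mean ± SD, n = 3), or by a log2 fold change of -0.54 (edgeR adjusted p = 0.00299). Adora3 encodes the A3 receptor, which inhibits adenylyl cyclase, and it went from 3.31 ± 0.393 to 1.49 ± 0.448 CPM, a log2 fold change of -1.16 (edgeR adjusted p = 0.00131). Thus 3 of the 3 adenosine receptor genes tested were called lower, also by DESeq2 and limma-voom and under each scaling of library size tried, beside a background in which 23.2% of genes were called lower. As all 3 were called lower by these tools, none could be called higher, so the count of 0 higher is no further result. Adora1, the A1 receptor gene, had 4, 0 and 0 reads with vehicle and 0 in each ALX-5407 culture and was not tested. Per length, in RPKM (CPM per kilobase of gene length), Adora2a stood at 35.9 with vehicle, Adora2b at 8.13 and Adora3 at 0.888.

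P2rx7 (ENSMUSG00000029468, chr5:122643911-122691432, + strand) and P2rx4 (ENSMUSG00000029470, chr5:122707544-122729738, + strand) are neighbours, 16111 bases apart. P2rx7 encodes the receptor that opens at high extracellular ATP and, on T cells, drives shedding of surface proteins and cell death. Its level was 97.0, 93 and 79.8 CPM with vehicle and 83.3, 87.9 and 94.8 CPM with ALX-5407. All 3 ALX-5407 values lay within the range of the vehicle cultures. The log2 fold change was -0.02 (standard error 0.0836, 95% confidence interval -0.20 to 0.16, edgeR adjusted p = 0.865).

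P2rx4 encodes a P2X channel that opens at lower ATP and takes part in T cell activation. It stood at 27.2, 27.3 and 31.0 CPM with vehicle and at 27.2, 28.9 and 25.6 CPM with ALX-5407. The groups overlapped, and the log2 fold change was -0.06 (standard error 0.0919, 95% confidence interval -0.26 to 0.13, edgeR adjusted p = 0.602). Per length, P2rx7 was 3.75 ± 0.629 times as high as P2rx4 with vehicle and 3.84 ± 0.439 times with ALX-5407 (± SD, n = 3). These ratios depend on the deposited gene lengths of 5970 bases for P2rx7 and 7025 for P2rx4. The longest coding transcripts have 4936 and 2702 bases.

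Of the 7 P2X receptor genes, 3 were tested and 0 were called by edgeR, DESeq2 or limma-voom. At an unadjusted p under 0.05 edgeR had 0, and DESeq2, which gave values for all 7, had 1 higher and 1 lower. The third gene tested, P2rx3, which encodes a channel best known from sensory neurons, had 98 to 190 reads in all libraries and a log2 fold change of 0.33 (edgeR adjusted p = 0.171). P2rx1, P2rx2, P2rx5 and P2rx6 had at most 17 reads in any library.

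Among 9 P2Y receptor genes, 6 were tested, 2 were called higher and 2 lower. The most abundant was P2ry10, a receptor for lysophospholipids in spite of its name, at 108 ± 10.8 CPM with vehicle and 77.9 ± 4.35 CPM with ALX-5407 (± SD, n = 3). Its log2 fold change was -0.47 (edgeR adjusted p = 0.000198). The ADP receptor genes P2ry1 and P2ry12 and the ATP and UTP receptor gene P2ry2 had at most 41 reads in any library. Each of those 3 calls was lost when some single libraries were left out. The adjusted p in those edgeR fits was up to 0.0823 for P2ry1, 0.17 for P2ry12 and 0.0844 for P2ry2. The P2ry12 call was kept in 1 of the 6 fits. It was also lost in DESeq2, with library totals alone as the scaling and without the filter on low counts. The P2ry2 call was kept in 2 of the 6 fits and was lost in DESeq2.

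Entpd1 (ENSMUSG00000048120, chr19:40612366-40741602, + strand) encodes CD39, the ectoenzyme that takes ATP and ADP to AMP and is carried by regulatory T cells, B cells and myeloid cells. Its level was 47.3, 46.4 and 49.2 CPM with vehicle and 45.6, 51.8 and 53.1 CPM with ALX-5407. The lowest and the highest values both belonged to ALX-5407 cultures. The log2 fold change was 0.08 (standard error 0.0807, 95% confidence interval -0.10 to 0.25, edgeR adjusted p = 0.472).

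Nt5e (ENSMUSG00000032420, chr9:88327197-88372092, + strand) encodes CD73, the ectoenzyme that makes adenosine from AMP. It stood at 22.3, 18.7 and 25.1 CPM with vehicle and at 16.7, 16.7 and 16.4 CPM with ALX-5407. The 3 ALX-5407 cultures lay close together under all vehicle cultures, which were more spread. The means were 22.0 ± 3.22 and 16.6 ± 0.144 CPM (± SD, n = 3), and the log2 fold change was -0.41 (standard error 0.111, edgeR adjusted p = 0.00616). Per length, the ratio of Entpd1 to Nt5e was 3.26, 3.83 and 3.02 with vehicle and 4.22, 4.80 and 4.99 with ALX-5407; this difference in ratio was not tested.

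Regulatory T cells carry both ectoenzymes. Of 7 regulatory T cell markers, all tested, 3 were called higher and 3 lower, and their sum ranged from 3315 to 3883 CPM with vehicle and from 3997 to 4112 CPM with ALX-5407. Foxp3, the transcription factor that defines these cells, went from 12.8 ± 2.16 to 21.2 ± 2.30 CPM (mean ± SD, n = 3), or by a log2 fold change of 0.73 (edgeR adjusted p = 0.000204). Il2ra, an IL-2 receptor gene that activated T cells also express, made up most of the sum, at 2235 ± 299.9 and 3021 ± 112 CPM (0.44, edgeR adjusted p = 0.000663), and Ikzf2 was the third higher call (0.43). The lower calls were Nrp1 (-0.92), Tnfrsf18 (-0.59) and Ctla4 (-0.46), with edgeR adjusted p-values from 1.3e-05 to 0.00018. The part of these cells, and of the B cell markers given above, in the Entpd1 and Nt5e values was not tested.

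Other ectonucleotidase genes changed in both directions. Enpp2 encodes autotaxin, which makes lysophosphatidic acid and also cleaves nucleotides, and it fell from 130 ± 11.3 to 37.1 ± 5.28 CPM (mean ± SD, n = 3), or by a log2 fold change of -1.80 (edgeR adjusted p = 1.12e-09). Enpp1, whose product splits ATP to AMP and pyrophosphate, rose from 16.0 ± 2.50 to 28.1 ± 0.602 CPM, a log2 fold change of 0.81 (edgeR adjusted p = 1.55e-05). Alpl, tissue-nonspecific alkaline phosphatase, rose from 25 to 42 reads with vehicle to 69 to 119 reads with ALX-5407 (log2 fold change 1.24, edgeR adjusted p = 0.00206). Entpd2, a second ecto-ATPase gene, had 30 to 39 reads in all libraries and was not called (log2 fold change -0.10, edgeR adjusted p = 0.825). In all, of 9 ectonucleotidase genes 6 were tested, with 2 called higher and 2 lower, and Entpd8 had no count in any library. Of the 4 related NTPDases inside the cell, 3 were tested and 2 were called higher, Entpd7 (0.39, edgeR adjusted p = 0.0135) and Entpd5 (0.24, edgeR adjusted p = 0.0474), and 0 lower, also at an unadjusted p under 0.05 in edgeR, against 1 in DESeq2. The Entpd7 call was lost without the second vehicle culture (adjusted p = 0.0645 in edgeR), and the Entpd5 call was kept in 1 of the 6 fits that left out a culture.

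Ada (ENSMUSG00000017697, chr2:163726584-163750239, - strand) and Adk (ENSMUSG00000039197, chr14:21052574-21448569, + strand) were the members that rose together. The stretches that lead up to their annotated starts are shown because both genes moved the same way; they come from RefSeq (GRCm38.p6), run 5′ to 3′ on each gene's strand, and span the 250 bases before the start of Ada (chr2:163750240-163750489) and the 65 bases between Adk and the oppositely directed gene Ap3m1 (chr14:21052509-21052573). Capitals mark the GC box GGGCGG and the core of the cyclic AMP response element, TGACG, searched on both strands.
Ada: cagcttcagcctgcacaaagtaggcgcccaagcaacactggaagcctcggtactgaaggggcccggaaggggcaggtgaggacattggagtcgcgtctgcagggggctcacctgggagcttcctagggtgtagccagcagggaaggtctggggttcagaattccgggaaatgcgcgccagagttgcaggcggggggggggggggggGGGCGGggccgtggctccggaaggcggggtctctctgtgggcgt
Adk: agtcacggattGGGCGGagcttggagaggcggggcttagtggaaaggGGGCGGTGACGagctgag
The Ada stretch holds 1 GC box and no TGACG, and the Adk stretch 2 GC boxes and 1 TGACG that follows directly on a GC box without overlapping it. GC made up 67.2% and 64.6% of the bases. Of the 32851 promoter windows of 250 bases in the RefSeq table, 32.7% held a GC box, 17.8% held TGACG and 12.4% held TATAAA. The members P2rx4, P2rx7, Entpd1, Nt5e, Ada and Adk matched 9 windows there, and GC boxes were found for 4 of these 6 genes, TGACG for 3 and TATAAA for 0. These are counts of genes, some with more than 1 window, whereas the percentages are shares of windows, so they cannot be compared directly. A further Adk window, chr14:21075902-21076151, held 3 GC boxes and no TGACG. Adora2a had no window in the RefSeq table.

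Ada encodes the deaminase that turns adenosine and deoxyadenosine into inosine and deoxyinosine, and its loss causes severe lymphocyte deficiency. Its level was the lowest of the members by CPM, at 3.93, 4.75 and 6.08 with vehicle (128, 149 and 187 reads) and 8.81, 6.81 and 8.10 with ALX-5407 (311, 254 and 284 reads). The groups did not overlap, although the third vehicle culture and the second ALX-5407 culture were near each other. The means were 4.92 ± 1.082 and 7.91 ± 1.01 CPM (± SD, n = 3), and the log2 fold change was 0.68 (standard error 0.174, edgeR adjusted p = 0.00389).

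Adk encodes the kinase that returns adenosine to AMP inside the cell, in a nuclear and a cytosolic form. It stood at 18.4, 17.2 and 26.2 CPM with vehicle and at 31.9, 28.6 and 30.1 CPM with ALX-5407. The third vehicle culture was above the other vehicle cultures and below all ALX-5407 cultures. The means were 20.6 ± 4.86 and 30.2 ± 1.64 CPM (± SD, n = 3), and the fitted difference on the log2 scale was 0.55 (standard error 0.129, edgeR adjusted p = 0.00209). Gene counts do not separate the forms of Adk.

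The enzymes around Ada and Adk moved in both directions. Of 24 genes of adenosine and AMP metabolism, 22 were tested, 8 were called higher and 5 lower, and 13 had a log2 fold change above 0, with a median of 0.06. Adal, whose product deaminates modified adenosine monophosphate, rose from 5.03 ± 0.353 to 8.54 ± 0.386 CPM (mean ± SD, n = 3), or by a log2 fold change of 0.76 (edgeR adjusted p = 0.000298). Ampd2, an AMP deaminase gene, rose from 45.4 ± 2.05 to 61.6 ± 1.62 CPM (0.44, edgeR adjusted p = 0.000142). The adenylate kinase gene Ak3 was higher as well (0.44, edgeR adjusted p = 0.00054). Among the genes called lower were Nt5c (-0.47), a cytosolic 5′-nucleotidase gene, Nt5c2 (-0.29), Aprt (-0.49), which salvages adenine, and Ak1 (-1.09), with edgeR adjusted p-values from 0.000135 to 0.00611. Ahcy, which releases adenosine from S-adenosylhomocysteine, was the most abundant by CPM and was not called, at 359 ± 31.8 and 345 ± 8.89 CPM (log2 fold change -0.06, edgeR adjusted p = 0.573).

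Dpp4 encodes CD26, the surface protein that holds adenosine deaminase on T cells. It went from 73.2 ± 5.35 to 62.6 ± 4.45 CPM (mean ± SD, n = 3), or by a log2 fold change of -0.23 (edgeR adjusted p = 0.0286). The call was lost with library totals alone as the scaling and in 3 of the 6 fits that left out a culture, with an adjusted p of up to 0.145 in edgeR.

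Nucleoside transporters carry adenosine across the membrane, and of 7 such genes 5 were tested, with 3 called higher and 2 lower. Slc28a2, a concentrative purine nucleoside transporter, rose from 32.7 ± 3.75 to 41.9 ± 3.74 CPM (mean ± SD, n = 3), or by a log2 fold change of 0.36 (edgeR adjusted p = 0.00627). Slc29a1, the main equilibrative transporter, had a log2 fold change of 0.28 (edgeR adjusted p = 0.0244), and this call was lost without the third vehicle or the first ALX-5407 culture (adjusted p of up to 0.118). Slc29a2 fell from 5.40 ± 0.543 to 3.65 ± 0.278 CPM (-0.56, edgeR adjusted p = 0.0114). The lysosomal transporter gene Slc29a3 had -0.36 (edgeR adjusted p = 0.0116), a call lost without the second vehicle culture (adjusted p = 0.0788). The third higher call, Slc29a4, rests on at most 36 reads in any library (1.15, edgeR adjusted p = 0.0464), was kept in 1 of the 6 fits that left out a culture and was lost in DESeq2, in limma-voom, without the filter on low counts and with the replicate number as a block.

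Genes for the release of ATP changed in both directions. Gja1, connexin 43, whose hemichannels let ATP out, fell from 206 ± 18.9 to 60.5 ± 3.75 CPM (mean ± SD, n = 3), or by a log2 fold change of -1.76 (edgeR adjusted p = 2.24e-10). Slc17a9, the transporter that loads ATP into vesicles, fell from 64.4 ± 1.59 to 28.6 ± 2.24 CPM (-1.17, edgeR adjusted p = 1.45e-08). Among subunit genes of the LRRC8 volume-regulated channel, Lrrc8c rose from 64.4 ± 1.80 to 110 ± 6.35 CPM (0.78, edgeR adjusted p = 3.15e-07) and Lrrc8a was higher too (0.68, edgeR adjusted p = 0.00453). The call of Lrrc8d (0.22, edgeR adjusted p = 0.0378) was kept in 2 of the 6 fits that left out a culture, and Lrrc8b (0.04, edgeR adjusted p = 0.752) and Lrrc8e (-1.17, edgeR adjusted p = 0.0666) were not called. Panx1, the pannexin channel gene, was not called (0.15, edgeR adjusted p = 0.15). Of the 10 genes of this kind, 8 were tested, 3 were called higher and 2 lower.

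**Figure D2:**
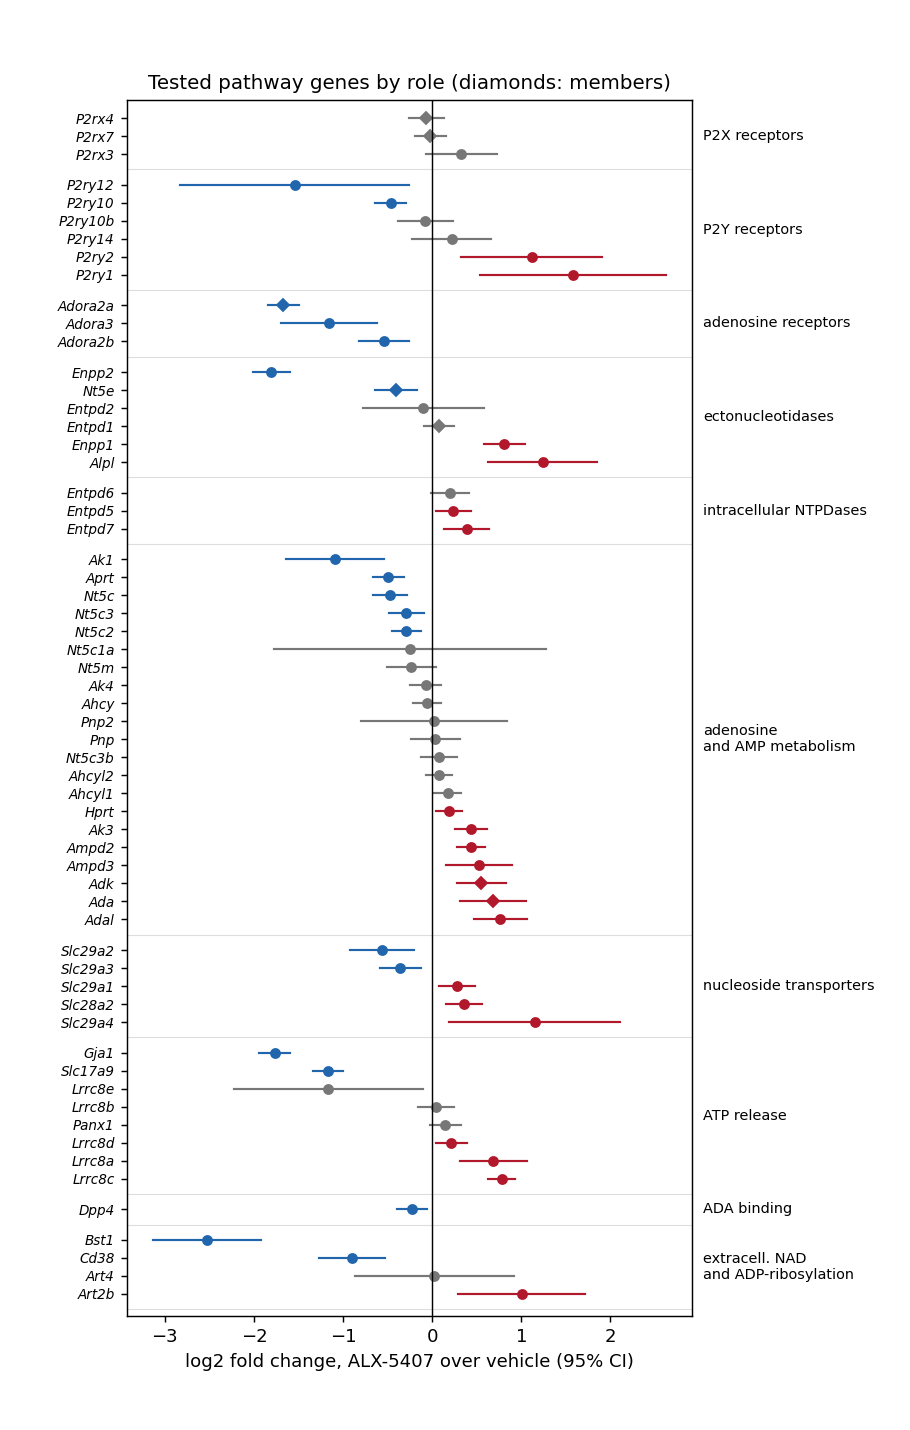
log2 fold change of ALX-5407 over vehicle (horizontal axis) with its 95% confidence interval for tested genes of the 10 pathway lists, grouped by role; red genes were called higher, blue lower and grey not called, and diamonds are the members. All 3 adenosine receptor genes lie left of 0, the 3 P2X receptor genes have intervals that include 0, and the other roles with 3 or more called genes hold both directions.

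Extracellular NAD also opens P2RX7 on mouse T cells, through ADP-ribosylation of the receptor by ARTC2.2 (Art2b), while CD38 and BST1 consume NAD. Of the 8 genes of this kind listed, 7 were matched by name, 4 were tested, and 1 was called higher and 2 lower. Cd38 fell from 7.41 ± 1.61 to 3.97 ± 0.147 CPM (mean ± SD, n = 3), or by a log2 fold change of -0.90 (edgeR adjusted p = 0.000487). Bst1 had 109, 111 and 136 reads with vehicle and 15, 24 and 31 with ALX-5407, a log2 fold change of -2.53 (edgeR adjusted p = 2.38e-06). Art2b had 26, 24 and 36 reads with vehicle and 47, 97 and 54 with ALX-5407, a log2 fold change of 1.00 (edgeR adjusted p = 0.0206). The Art2b call was lost in 3 of the 6 fits that left out a culture, with an adjusted p of up to 0.16. Among 10 genes for what P2RX7 sets off, 9 were tested, 1 was called higher and 1 lower, beside 47.7% of all genes tested that were called. The sheddase gene Adam10 rose from 104 ± 6.92 to 155 ± 6.99 CPM (0.57, edgeR adjusted p = 9.82e-06). Of the 7 not called, Cd27 (0.0004), Gsdmd (-0.14) and Adam17 (0.06) were highest per length (edgeR adjusted p = 0.9975, 0.183 and 0.522).

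The order of the members by level per length changed between the groups. This order rests on the deposited gene lengths, which exceed the longest coding transcript of every member. For Adk the 2 lengths are 8526 and 1818 bases, and for Ada 2002 and 1688 bases. Ranks and ratios between genes therefore depend on the length used, whereas changes of 1 gene between groups do not. With vehicle, Adora2a was highest at 35.9 ± 2.62 RPKM (SD, n = 3), followed by P2rx7 at 15.1 ± 1.51, Entpd1 at 8.53 ± 0.256 and P2rx4 at 4.06 ± 0.312. Each of these was above the next in every culture. Nt5e (2.56 ± 0.375), Ada (2.46 ± 0.541) and Adk (2.42 ± 0.57) overlapped and had no order. With ALX-5407, P2rx7 (14.9 ± 0.964 RPKM) was above Adora2a (11.3 ± 0.711 RPKM), which was above Entpd1 (8.99 ± 0.719 RPKM), in each case without overlap. Ada (3.95 ± 0.506 RPKM), P2rx4 (3.88 ± 0.232 RPKM) and Adk (3.54 ± 0.193 RPKM) overlapped with their neighbours in that order, and Nt5e was lowest at 1.93 ± 0.0167 RPKM. Per length, Adora2a stood at 18.9, 15.9 and 10.9 times Ada in the vehicle cultures and at 2.66, 3.45 and 2.59 times in the ALX-5407 cultures. The ratio of Adk to Ada was 0.987 ± 0.127 with vehicle and 0.902 ± 0.0727 with ALX-5407, and these overlapped.

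**Figure D3:**
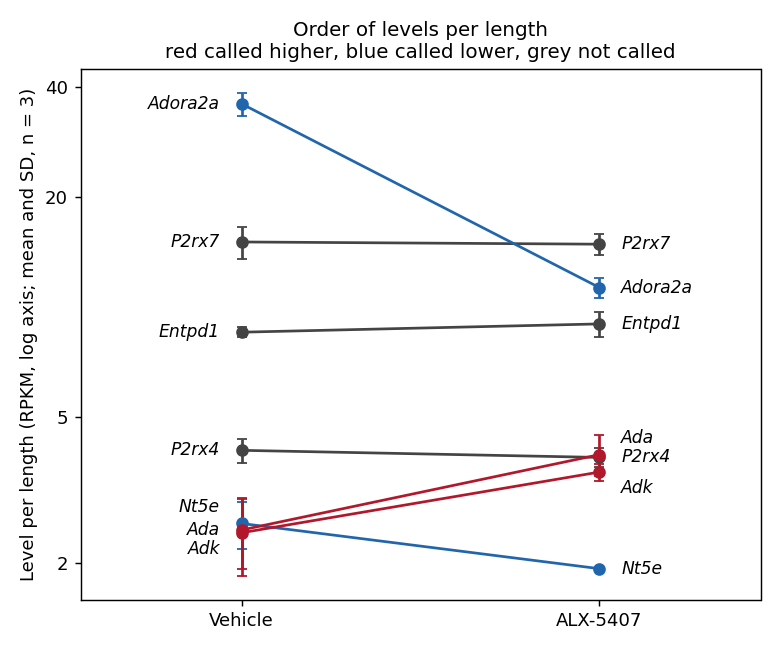
Mean level per length of each member in RPKM (vertical log axis) in vehicle and ALX-5407 cultures, with the SD (n = 3 each); red members were called higher, blue lower and grey not called. Adora2a passes from above to below P2rx7. Nt5e, Ada and Adk lie together near 2.5 RPKM with vehicle. With ALX-5407, Nt5e lies at 1.93, apart from Adk at 3.54 and Ada at 3.95. Positions of genes relative to each other depend on the deposited gene lengths.

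Across the 10 pathway lists, members included, 83 genes were listed and 61 tested, of which 21 were called higher and 19 lower, and 13 passed the fold change limit. Without the members, 54 were tested, with 19 higher and 17 lower and a median log2 fold change of 0.04. The called genes thus numbered 40 of 61, beside 47.7% of all genes tested. Among genes with a mean of at least 50 counts, 32 of 51 pathway genes were called. Of all 12117 such genes, 3448 were called higher and 3439 lower. These counts and those of single lists are descriptions only, since the lists were chosen with earlier results of these data known.

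A2a and A2b receptors signal through cyclic AMP, so the genes that make, sense and break it down were described from lists as well. Of the 16 phosphodiesterase genes listed, which break down cyclic AMP, 11 were tested, 9 were called lower and 0 higher, with a median log2 fold change of -0.71, beside 23.2% of all genes called lower. DESeq2 and limma-voom also gave 9 lower and 0 higher, though the 9 genes of DESeq2 do not include Pde2a, and 0 were higher at an unadjusted p under 0.05 in any of the 3 tools. Pde4d fell from 172 ± 6.63 to 92.2 ± 4.26 CPM (mean ± SD, n = 3), or by a log2 fold change of -0.90 (edgeR adjusted p = 5.73e-08). Pde7a fell from 236 ± 13.5 to 135 ± 12.03 CPM (-0.81, edgeR adjusted p = 5.44e-07), and Pde4b from 163 ± 14.6 to 99.2 ± 8.17 CPM (-0.71, edgeR adjusted p = 3.36e-06). Pde3b (-0.46), Pde11a (-0.79), Pde4a (-0.71), Pde8a (-0.54) and Pde1b (-0.49) had edgeR adjusted p-values from 8.53e-05 to 0.00197. Pde4c and Pde10a were not called, at -0.21 and -0.72 (edgeR adjusted p = 0.155 and 0.27). The ninth call, that of Pde2a, rests on at most 19 reads in any library and was lost in 3 of the 6 fits that left out a culture (adjusted p of up to 0.0903 in edgeR).

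Of 27 genes for G proteins, adenylyl cyclases, cyclic AMP sensors and CREB factors, 23 were tested, 4 were called higher and 5 lower. Crem, a CREB family gene that cyclic AMP itself induces, fell from 270 ± 16.0 to 92.4 ± 10.1 CPM (mean ± SD, n = 3), or by a log2 fold change of -1.55 (edgeR adjusted p = 1.13e-09). The EPAC genes Rapgef3 (-1.14) and Rapgef4 (-1.16), whose products sense cyclic AMP, the kinase A regulatory subunit gene Prkar1b (-1.06) and the CREB coactivator gene Crtc2 (-0.70) were called lower, with edgeR adjusted p-values from 3.39e-06 to 0.000102. Prkar2a (0.68), another regulatory subunit gene, and Creb1 (0.36) were called higher, with edgeR adjusted p-values of 2.44e-06 and 0.0008. Gnas, the G protein that couples A2a to adenylyl cyclase, was not called (-0.11, edgeR adjusted p = 0.514).

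**Figure D4:**
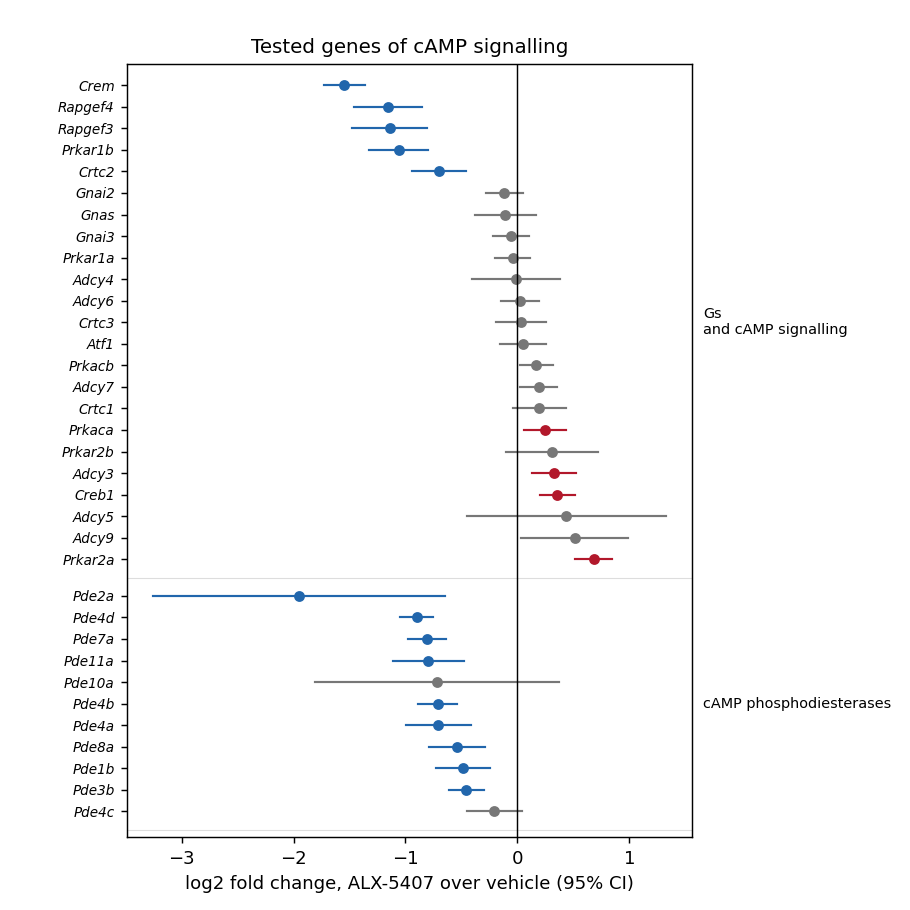
log2 fold change of ALX-5407 over vehicle (horizontal axis) with its 95% confidence interval for each tested gene of cyclic AMP signalling and of the phosphodiesterases; red genes were called higher, blue lower and grey not called. All 11 phosphodiesterase genes lie left of 0, and 9 of them were called lower, while the signalling genes lie on both sides.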

How the data were processed

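RNA from 6 cultures was sequenced, and the authors deposited 1 table of raw counts, whole reads per gene and library with no normalization or pooling. Per the submitters' processing notes, fastp, HISAT2 2.0.5, featureCounts 1.5.0-p3 and the build mm10 (GRCm38) were used. The strand setting, the annotation release and the treatment of reads with several matches are not given in the sources used here. Groups came from the labels.

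Counts were analysed with edgeR 4.0.16 in R 4.3.3 (filterByExpr with a minimum count of 10 and total of 15, TMM, quasi-likelihood F test, vehicle against ALX-5407, Benjamini-Hochberg adjustment over 15938 genes). Intervals are at 95%. RPKM used the deposited gene lengths, so comparisons of level between genes depend on those lengths. DESeq2 1.42.0, limma-voom 3.58.1, other scalings and filters, a replicate block and each library left out were alternatives; the edgeR, DESeq2 and limma-voom fits were tested on simulated data. Annotation came from GENCODE M21, where the spans of all 7 members match the table. BLAST 2.17.0 found 0 other genes with 95% identity over 200 bases or more to any member's longest coding transcript. Figures were drawn with matplotlib 3.10.9.

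The members and lists were chosen with earlier results of these data known. Genes to name were taken from the called genes of each list with the smallest p (up to 8), uncalled genes with the highest level per length (up to 3) and genes at 0. Not every gene that meets this rule is named. Adora1, Gnas, Klrb1c, Nt5c2, P2rx1, P2rx2, P2rx5, P2rx6 and Pde2a lie outside this rule and were chosen after their values were seen. The 2 genes most like each member by pattern were named too. For 2 list genes the values are counted in their lists but not reported here.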

Additional observations from a re-analysis of the deposited data

How the results depend on the processing

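The direction and the call of Nt5e, Adora2a, Ada and Adk were the same under all 13 alternatives run for each, with log2 fold changes of -0.528 to -0.324 for Nt5e, -1.74 to -1.61 for Adora2a, 0.538 to 0.848 for Ada and 0.427 to 0.744 for Adk, and the highest adjusted p was 0.0301. P2rx4, P2rx7 and Entpd1 were called under none of these. P2rx7 changed sign, to 0.04 with library totals alone, to 0.029 without the first vehicle culture and to 0.0286 without the first ALX-5407 culture; with a culture left out it ranged from -0.116 to 0.029. With the fold change limit, the called genes went from 4 to 1 of the members, from 40 to 13 of the pathway genes and from 18 to 5 of the cyclic AMP genes, because the limit is stricter. With a culture left out, the counts were 4, 31 to 38 and 17 to 21. Of the 40 pathway genes called, 26 stayed called in all 6 of those fits, as did 15 of the 18 cyclic AMP genes. With the replicate number as a block, the counts were 4, 40 and 20. The block fit called 4071 of all genes higher and 3833 lower, beside 3910 and 3695 without the block. Correlations of deviations across genes were -0.0084, 0.00355 and 0.0635 for same-numbered cultures. For cultures with unlike numbers they ran from -0.0615 to 0.0665. With 3 cultures per group, these values cannot show whether the cultures were paired. Genes with few reads, such as P2ry12 and Pde2a, have wide intervals.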

Other observations

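The nearest protein-coding gene to each member, a comparison chosen after the data were seen, moved in several ways. Specc1l, 4133 bases from Adora2a, fell from 90.9 to 68.8 CPM (log2 fold change -0.40, edgeR adjusted p = 0.000171), a smaller change than that of Adora2a at -1.67. Snx14, 4657 bases from Nt5e, had a log2 fold change of -0.42 (edgeR adjusted p = 0.000658), beside -0.41 for Nt5e. Ap3m1, which starts 65 bases from Adk on the other strand, had 0.24 (edgeR adjusted p = 0.0331). Camkk2, 1431 bases from P2rx4 on the other strand, rose from 16.4 to 32.4 CPM (0.99, edgeR adjusted p = 1e-06), while P2rx4 itself was not called. Pkig, 425 bases from Ada, and Tctn3, 132 bases from Entpd1, were not called (0.06 and 0.32, edgeR adjusted p = 0.749 and 0.0601).

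Likeness of pattern was measured as Pearson's r of log2 CPM over the 6 libraries, across 12116 other genes with a mean of at least 50 counts, as a description only, since the libraries share the group difference. Adora2a was most like Rnf7 (r = 0.9996, log2 fold change -0.50) and Gja1 (0.9991, -1.76), and 1331 genes had an r over 0.95 with it. Ada was most like Etfrf1 (0.995) and AW209491 (0.994), Adk most like Dcun1d2 (0.998) and Psmd5 (0.996), and Nt5e most like Mctp2 (0.996) and Pdk1 (0.995). P2rx7 was most like Nlk (0.99) and Ptges3-ps (0.984), P2rx4 most like 2610021A01Rik (0.998) and 4930430F08Rik (0.9752), and Entpd1 most like Gm38250 (0.983) and Synj2 (0.977). For these last 3 members, which were not called, 8 to 14 genes had an r over 0.95.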
